A study of Mus musculus with 18 samples.

Results

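Death receptors, caspase-8 with its inhibitor c-FLIP, and the cellular IAPs were followed through carfilzomib (CFZ) treatment in NIH-3T3 cells, an established line of mouse embryonic fibroblasts. CFZ irreversibly inhibits the proteasome. The genes are Tnfrsf10b, Fas, Tnfrsf1a, Tnfrsf12a, Casp8, Cflar, Birc2 and Birc3. They were chosen by symbol, as 8 of the 23420 rows of a table of read counts, and all 8 passed the expression filter. RNA-seq covered 18 libraries in 6 groups of 3 biological replicates. Wild-type (WT) cells and Nrf1-KO cells were each sampled in DMSO (the vehicle), after 6 h of 200 nM CFZ and after 24 h of 200 nM CFZ. The sample labels give no time for DMSO. The gene called Nrf1 by the study is Nfe2l1, a transcription factor of proteasome genes, and it was inactivated with CRISPR/Cas9. The knockout was sampled as a single cell line in these labels, so that its genotype and any other difference between the lines cannot be told apart.

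In the extrinsic pathway of apoptosis, ligands such as TRAIL, FasL and TNF bind receptors that carry an intracellular death domain. At the receptors of TRAIL and FasL the adaptor FADD then brings in caspase-8. There caspase-8 is activated unless c-FLIP, an inactive relative encoded by Cflar, takes its place. The ubiquitin ligases cIAP1 (Birc2) and cIAP2 (Birc3) ubiquitinate the kinase RIPK1 at the TNF receptor and keep that complex on the side of NF-kB signalling and survival. Tnfrsf10b, the mouse TRAIL receptor DR5, is a known target of CHOP, the stress transcription factor encoded by Ddit3. Fas and Birc3 are known targets of NF-kB, and Fas is also a known target of p53.

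Library totals ran from 8333148 to 23917081 counts, with a median of 14419832. The members' counts ranged from 75 reads, for Fas in a library of Nrf1-KO cells at 24 h, to 3731 reads for Tnfrsf12a in another library of that group. Nfe2l1 stood at a mean of 448 CPM in WT DMSO and 180.1 CPM in Nrf1-KO DMSO. After CFZ its mean was 642 CPM at 6 h and 565 CPM at 24 h in WT cells, and 419 and 204 CPM in Nrf1-KO cells. These transcript levels do not measure the Nrf1 protein. All 9 fibroblast markers were detected. Their summed level was 25745 to 34996 CPM in the DMSO libraries of both lines. At 24 h the sum was 8146 to 8454 CPM in WT and 11082 to 13234 CPM in Nrf1-KO cells. The markers did not all fall in Nrf1-KO cells. There the mean of Vim was 3398 CPM in DMSO and 3451 CPM at 24 h, and that of Pdgfra 264 and 284 CPM. The other fibroblast markers had lower means at 24 h than in DMSO in that line. The immune markers summed to at most 5.82 CPM and the endothelial markers to at most 4.33 CPM, each with its highest sums at 24 h. Of the 5 epithelial markers, Epcam and Cldn4 were at 0 in every library, while Krt14 and Cdh1 were detected. In DMSO the mean of Krt14 was 142 CPM in WT and 58.7 CPM in Nrf1-KO cells, and that of Cdh1 6.12 and 11.6 CPM. The 5 epithelial markers together summed to 57.8 to 151 CPM. The part of these shifts in the values below was not tested. In bulk RNA, fewer cells with a transcript and less of it per cell cannot be told apart.

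The start regions of Fas and Birc3, which rose at 6 h and were lower again at 24 h, and of Birc2, the neighbour of Birc3 that was not called at 6 h, are shown to set these courses beside their sequences. Each run is the 250 bases before the RefSeq transcription start on GRCm38.p6, written 5′ to 3′ on the gene's strand, with motif matches in capitals. Tnfrsf10b had no RefSeq entry, and its start region was not searched. RefSeq start regions were matched for 7 of the 8 genes, in 8 entries. They were searched on both strands for the C/EBP-ATF composite site (TGATGNAA), AP-1 (TGANTCA), CRE (TGACGTCA), the antioxidant response element (TGACNNNGC), the heat shock element (GAANNTTC) and the NF-kB site, and 2 entries held a match.

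Fas, chr19:34290409-34290658, plus strand: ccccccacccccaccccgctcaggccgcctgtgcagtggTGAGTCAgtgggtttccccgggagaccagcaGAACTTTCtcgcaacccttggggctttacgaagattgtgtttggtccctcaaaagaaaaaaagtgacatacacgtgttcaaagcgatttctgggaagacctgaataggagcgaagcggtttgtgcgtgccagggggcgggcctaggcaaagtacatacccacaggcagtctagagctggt
Birc3, chr9:7873171-7873420, minus strand: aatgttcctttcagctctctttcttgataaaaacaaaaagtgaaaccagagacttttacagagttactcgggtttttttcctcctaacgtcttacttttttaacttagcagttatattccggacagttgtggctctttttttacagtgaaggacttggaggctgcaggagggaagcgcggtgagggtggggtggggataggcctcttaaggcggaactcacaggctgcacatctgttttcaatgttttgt
Birc2, chr9:7837058-7837307, minus strand: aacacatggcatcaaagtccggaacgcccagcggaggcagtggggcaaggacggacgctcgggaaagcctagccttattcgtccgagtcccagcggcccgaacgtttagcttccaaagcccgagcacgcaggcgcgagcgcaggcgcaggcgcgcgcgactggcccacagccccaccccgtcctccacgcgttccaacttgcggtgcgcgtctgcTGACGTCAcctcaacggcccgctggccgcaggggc

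In the Fas region the first capitals mark an AP-1 match that begins at -211 from the start site, and the second a heat shock element match that begins at -180. The Birc2 region shown holds a CRE match at -35. A further RefSeq entry of Birc2, at chr9:7836807-7837056, is not shown and holds none of the searched letters. The Birc3 region holds none of the searched letters. Of 32851 promoter entries of the same length, 6.75% hold the AP-1 letters, 6.69% the heat shock element, 1.55% the CRE, 3.45% the C/EBP-ATF composite, 10.2% the antioxidant response element and 7.25% the NF-kB site. The matches are descriptions of letters in a window and not measured sites.

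CFZ raised Tnfrsf10b and Fas most at 6 h, in both lines. Tnfrsf10b remained high at 24 h, whereas Fas had returned most of the way in WT cells and the whole way in Nrf1-KO cells. A gene was called when edgeR's quasi-likelihood test gave a Benjamini-Hochberg adjusted p-value under 0.05 over the 11762 genes tested. A stricter rule also asked for a change of at least 2-fold. At 6 h in WT cells 6 members were higher and 1 was lower, where 35.6% of all genes tested were called higher and 36.2% lower. At least 2-fold higher were 2 members, against 3.98% of all genes, and none was lower by that much, against 5.65%. At 24 h in WT cells 5 were higher and 2 lower, beside 43.2% and 40.5% of all genes. The 2-fold rule left 2 higher and 0 lower, beside 10.5% and 14.5%. The 2 genes were Tnfrsf10b and Fas at 6 h and Tnfrsf10b and Tnfrsf12a at 24 h. In Nrf1-KO cells at 6 h, 4 members were higher and 2 lower, beside 34.5% and 35.0% of all genes, and 3 were at least 2-fold higher and 0 lower, beside 3.30% and 4.26%. In Nrf1-KO cells at 24 h, 3 were higher and 3 lower, beside 44.4% and 41.1%, with 2 at least 2-fold higher and 0 lower, beside 11.5% and 15.2%. In this line Birc3 joined Tnfrsf10b and Fas at 6 h, and the genes at 24 h were again Tnfrsf10b and Tnfrsf12a. Without a fold limit the counts therefore have to be read against a background in which most genes moved. Scaling by library size alone gave, among all genes called, 35.4% higher for WT at 6 h where TMM gave 49.6%, 36.4% for Nrf1-KO at 6 h where TMM gave 49.7%, and 41.6% for Nrf1-KO at 24 h where TMM gave 52.0%. Upper-quartile scaling gave 37.9% higher for WT at 6 h.

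From 6 h to 24 h most members went down. In WT cells 1 member was higher and 6 were lower, beside 36.9% and 35.4% of all genes, and 1 of them, Fas, was at least 2-fold lower and 0 were higher, beside 6.92% and 5.16%. In Nrf1-KO cells the counts were again 1 higher and 6 lower, beside 38.7% and 38.3%, with Fas the 1 member at least 2-fold lower and 0 higher, beside 9.22% and 6.56%. The member that was higher was Tnfrsf12a in both lines. The median log2 change of the 8 members between the times was -0.43 in WT and -0.44 in Nrf1-KO cells, against 0.01 and 0.00 over all genes tested. Against DMSO the members' median in WT cells was 0.43 at 6 h (-0.02 over all genes) and 0.24 at 24 h (0.02), and in Nrf1-KO cells 0.24 at 6 h (-0.01) and -0.02 at 24 h (0.03). The comparisons at the different times share their DMSO libraries within a line, and each is given with its own values.

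**Figure D1:**
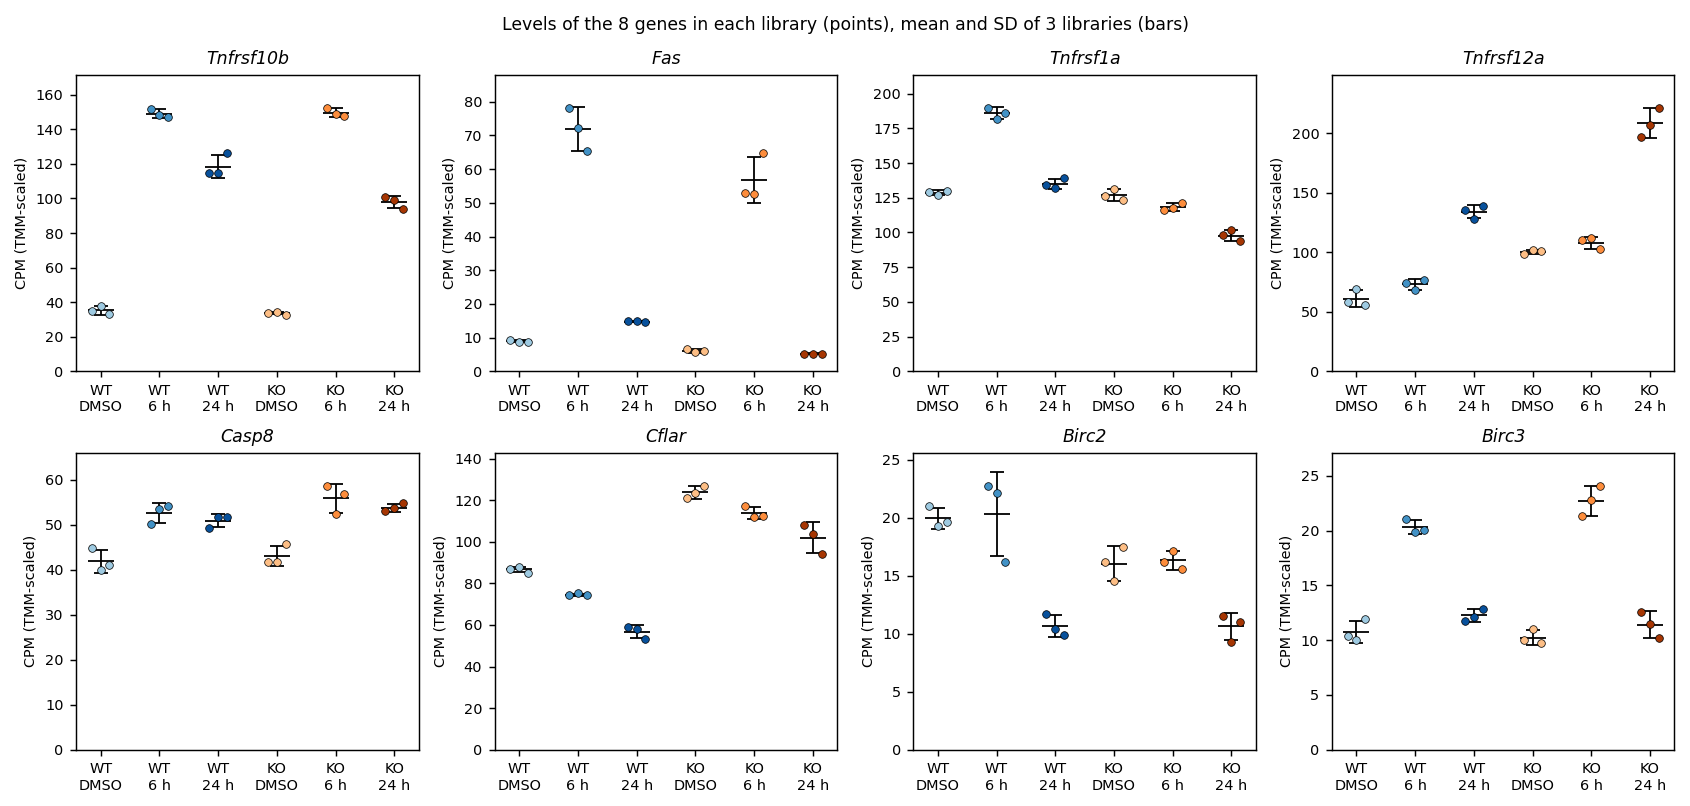
Level of each of the 8 genes in every library, in TMM-scaled CPM on linear axes that start at 0, with points for libraries and bars for the mean and SD of 3 libraries. Tnfrsf10b rises from 32.9 to 38.1 CPM in DMSO to between 147 and 153 CPM at 6 h in both lines, and Fas peaks at 6 h and stands at 14.5 to 14.9 CPM in WT and 5.10 to 5.28 CPM in Nrf1-KO cells at 24 h.

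Tnfrsf10b (GRCm38 chr14:69767472-69784411, plus strand) had the largest rise that was still held at 24 h. Levels are given in CPM, the reads of a gene relative to its library's total after TMM scaling. In WT cells the 3 DMSO libraries stood at 34.9, 38.1 and 33.1 CPM, those at 6 h at 152, 148 and 147 CPM, and those at 24 h at 114, 115 and 126 CPM. In Nrf1-KO cells they stood at 33.8, 34.2 and 32.9 CPM in DMSO, 153, 149 and 148 CPM at 6 h, and 101, 98.9 and 93.8 CPM at 24 h. Within each line the 3 groups did not overlap, and at 6 h the libraries of the lines lay in the same range. The log2 change against DMSO was at 6 h 2.07 in WT (SE 0.047, adjusted p = 5.99e-27), a 4.21-fold rise, and 2.16 in Nrf1-KO (SE 0.047, adjusted p = 3.3e-27), a 4.47-fold rise. At 24 h it was 1.74 in WT (SE 0.048, adjusted p = 3.07e-25) and 1.54 in Nrf1-KO (SE 0.048, adjusted p = 7.72e-24). The difference between the responses of the lines, tested as an interaction, was 0.09 at 6 h (SE 0.068, adjusted p = 0.343). At 24 h it was -0.20 (SE 0.069, adjusted p = 0.0133), a smaller rise in the Nrf1-KO cells. That call was lost without WT DMSO replicate 3 (adjusted p = 0.0629) and without WT CFZ 24 h replicate 3 (adjusted p = 0.0609).

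Ddit3, the gene of CHOP, is set beside Tnfrsf10b because CHOP is known to act on it. Its transcript did not follow the same order between the lines. Ddit3 stood at 48.9 ± 0.731 CPM in WT DMSO (SD, n = 3) and reached 124 ± 3.85 at 6 h and 135 ± 7.58 at 24 h. In Nrf1-KO cells it went from 32.9 ± 0.899 CPM to 179 ± 3.41 and 321 ± 16.0. From 6 h to 24 h in Nrf1-KO cells Ddit3 rose further, by 0.84 on the log2 scale, over the interval in which Tnfrsf10b fell by 0.62. The interaction of line and CFZ was 1.10 for Ddit3 at 6 h and 1.81 at 24 h, against 0.09 and -0.20 for Tnfrsf10b. Atf4, a further transcription factor gene set beside the members, was highest at 6 h in both lines, as Tnfrsf10b was. Its means were 558, 816 and 733 CPM in WT and 640, 969 and 819 CPM in Nrf1-KO cells (DMSO, 6 h and 24 h). Transcript levels do not measure the CHOP protein, and the part of either factor in the course of Tnfrsf10b was not tested.

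Fas (chr19:34290666-34327772, plus strand) encodes the receptor of FasL and rose most of the 8 members at 6 h in both lines. In WT cells the libraries stood at 9.38, 8.86 and 8.68 CPM in DMSO, 78.3, 72.2 and 65.4 CPM at 6 h and 14.9, 14.9 and 14.5 CPM at 24 h. In Nrf1-KO cells they stood at 6.57, 5.67 and 5.90 CPM in DMSO, 52.9, 52.7 and 64.8 CPM at 6 h and 5.28, 5.10 and 5.26 CPM at 24 h. Every WT library at 24 h was above every WT DMSO library, and every Nrf1-KO library at 24 h was below every Nrf1-KO DMSO library. At 6 h the log2 change was 3.00 in WT (SE 0.078, adjusted p = 2.56e-25; 7.98-fold) and 3.22 in Nrf1-KO (SE 0.088, adjusted p = 1.67e-24; 9.29-fold), and these did not differ measurably (interaction 0.22, SE 0.135, adjusted p = 0.211). At 24 h WT cells still held a rise of 0.71 (SE 0.105, adjusted p = 2.87e-07). The Nrf1-KO value was -0.21 (SE 0.139, adjusted p = 0.164). It was called lower with upper-quartile scaling (-0.32, adjusted p = 0.0345) and with library size alone (-0.39, adjusted p = 0.00884). The interaction at 24 h was -0.92 (SE 0.174, adjusted p = 3.65e-05), and it stayed between -0.997 and -0.867 and past the threshold in all 19 alternatives. Fas was also lower in Nrf1-KO than in WT cells in DMSO, with a log2 difference of -0.58 (SE 0.121, adjusted p = 1.37e-04). Trp53, the gene of p53, had means of 153, 253 and 281 CPM in WT and 136, 230 and 248 CPM in Nrf1-KO cells. These are in the order DMSO, 6 h and 24 h, and their relation to Fas was not tested.

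Tnfrsf1a (chr6:125349362-125362484, plus strand), the main receptor of TNF, rose at 6 h in WT cells and not in Nrf1-KO cells. In WT cells it went from 129, 127 and 130.1 CPM in DMSO to 189.96, 181.75 and 186.17 CPM at 6 h and back to 134, 132 and 139 CPM at 24 h. In Nrf1-KO cells it went from 126, 132 and 123 CPM in DMSO to 116, 118 and 121 CPM at 6 h and 97.9, 102 and 93.6 CPM at 24 h. The WT libraries at 6 h lay above all others, and the Nrf1-KO libraries at 24 h lay below all others. The log2 change at 6 h was 0.53 in WT (SE 0.036, adjusted p = 1.81e-14) and -0.10 in Nrf1-KO (SE 0.038, adjusted p = 0.018). The Nrf1-KO value lost its call in 3 of the fits that left out a single library, without Nrf1-KO DMSO replicate 2 and without Nrf1-KO CFZ 6 h replicate 1 or replicate 2. The interaction was -0.63 at 6 h (SE 0.052, adjusted p = 1.72e-11) and -0.45 at 24 h (SE 0.052, adjusted p = 1.07e-08). At 24 h the Nrf1-KO cells were lower than their DMSO, at -0.38 (SE 0.037, adjusted p = 7.55e-11), and the WT value was 0.07 (SE 0.037, adjusted p = 0.0733). In DMSO the lines differed by -0.02 (SE 0.036, adjusted p = 0.669).

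Tnfrsf12a (chr17:23675445-23677468, minus strand) encodes Fn14, the receptor of TWEAK, which signals through TRAF proteins and has no death domain. Its rise came late. The WT libraries stood at 58.3, 69.2 and 55.6 CPM in DMSO, 74.4, 68.2 and 76.7 CPM at 6 h and 136, 128 and 139 CPM at 24 h. The Nrf1-KO libraries stood at 98.6, 102 and 101 CPM in DMSO, 110.1, 112 and 102 CPM at 6 h and 197, 207 and 222 CPM at 24 h. At 6 h the WT groups overlapped, and at 24 h no library of either line overlapped with its earlier groups. In DMSO the Nrf1-KO cells were higher by 0.72 (SE 0.057, adjusted p = 3.51e-12). At 24 h the log2 change was 1.13 in WT (SE 0.057, adjusted p = 3.54e-18) and 1.05 in Nrf1-KO (SE 0.051, adjusted p = 1.14e-18), with an interaction of -0.08 (SE 0.077, adjusted p = 0.386) that became -0.18 (adjusted p = 0.0309) without WT DMSO replicate 2. At 6 h it was 0.26 in WT (SE 0.061, adjusted p = 4.24e-04), a call that was lost with library size alone (0.13, adjusted p = 0.0611), and 0.11 in Nrf1-KO (SE 0.056, adjusted p = 0.0766). The latter was called in a model of the compared groups only (adjusted p = 0.0171) and without Nrf1-KO CFZ 6 h replicate 3 (adjusted p = 0.0392). Of the ligands, Tnfsf12 (TWEAK) was the only 1 of the 5 listed that passed the expression filter. It was lower in all 4 comparisons with DMSO, with log2 changes of -0.88 in WT and -0.73 in Nrf1-KO at 6 h and of -0.64 and -0.88 at 24 h.

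**Figure D2:**
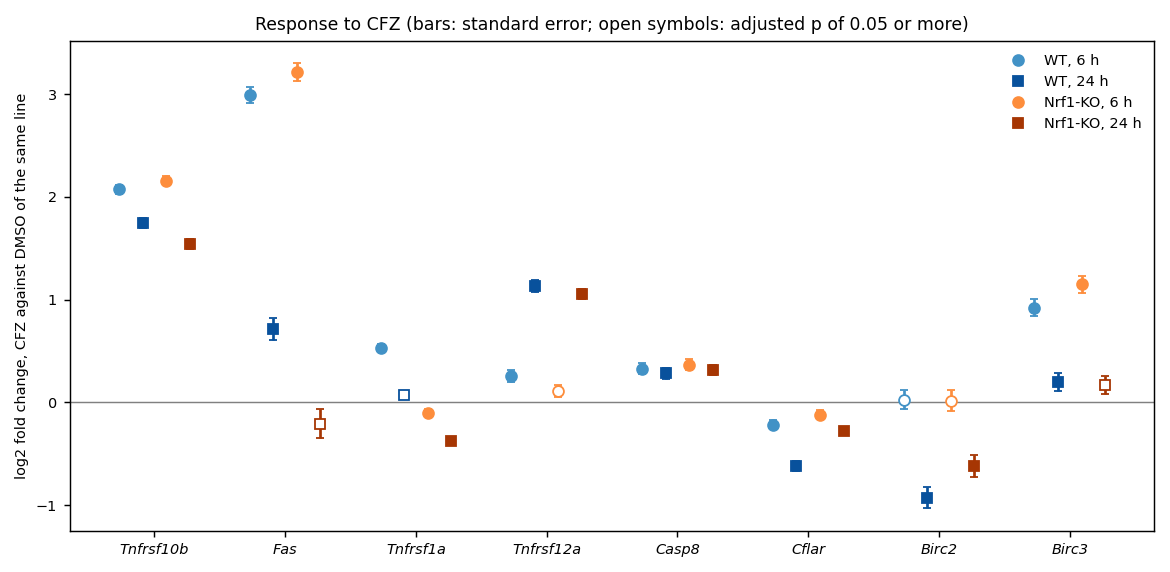
Log2 fold change of each gene after CFZ against DMSO of the same line, with the standard error as bars, circles for 6 h, squares for 24 h, blue for WT and orange for Nrf1-KO, and open symbols where the adjusted p is 0.05 or more. Fas stands at 3.00 and 3.22 at 6 h and at 0.71 and -0.21 at 24 h, while Casp8 stays between 0.28 and 0.37 in all 4 comparisons.

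Casp8 and Cflar are neighbours on chromosome 1 (Cflar at chr1:58711508-58758884 and Casp8 at chr1:58795374-58847503, both on the plus strand, 36489 bases apart), and they moved in opposite directions. Casp8, the initiator caspase of the receptor complex, rose slightly everywhere. Its log2 change was 0.33 (SE 0.053, adjusted p = 2.45e-06) and 0.28 in WT and 0.37 and 0.31 in Nrf1-KO cells, at 6 h and 24 h in that order, and all 4 were called. Its DMSO libraries lay between 39.9 and 45.7 CPM and its CFZ libraries between 49.2 and 58.6 CPM, without overlap. The interaction was 0.04 (SE 0.075, adjusted p = 0.708) at 6 h and 0.03 (SE 0.073, adjusted p = 0.730) at 24 h.

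Cflar was lower after CFZ in each line. WT libraries stood at 87.2, 87.8 and 85.2 CPM in DMSO, 74.4, 75.2 and 74.3 CPM at 6 h and 59.1, 57.9 and 53.3 CPM at 24 h. Nrf1-KO libraries stood at 121, 123 and 127 CPM in DMSO, 117, 112 and 113 CPM at 6 h and 108, 104 and 93.9 CPM at 24 h. Every Nrf1-KO library, treated or not, was above every WT library. In DMSO the difference was 0.51 (SE 0.041, adjusted p = 4.86e-12). The log2 change at 24 h was -0.62 in WT (SE 0.047, adjusted p = 1.63e-13) and -0.28 in Nrf1-KO (SE 0.041, adjusted p = 2.10e-07), and the interaction of 0.34 (SE 0.063, adjusted p = 2.90e-05) gives the smaller fall in Nrf1-KO cells. At 6 h the changes were -0.22 in WT (SE 0.046, adjusted p = 9.1e-05) and -0.12 in Nrf1-KO (SE 0.042, adjusted p = 0.0124). The latter was lost without Nrf1-KO DMSO replicate 3 and without Nrf1-KO CFZ 6 h replicate 2. Cflar shares 3.63% of its stretches of read length with the locus Gm9845, so that some of its reads could have been assigned either way.

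The ratio of Cflar reads to Casp8 reads within a library needs no scaling between libraries. It was 2.08 ± 0.128 in WT DMSO (SD, n = 3) and became 1.42 ± 0.0586 at 6 h and 1.12 ± 0.0847 at 24 h. In Nrf1-KO cells it was 2.88 ± 0.0935 in DMSO and became 2.04 ± 0.0838 at 6 h and 1.90 ± 0.167 at 24 h. The highest ratio of WT cells at 24 h (1.20) was below the lowest of Nrf1-KO cells at 24 h (1.72), and the treated Nrf1-KO libraries, between 1.72 and 2.14, overlapped with WT DMSO, between 1.95 and 2.20. The ratio of reads is not a ratio of molecules, since the transcripts differ in length. It was chosen after earlier results were known and is given without a test.

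Birc2 (chr9:7818227-7837064) and Birc3 (chr9:7848699-7873186), both on the minus strand, lie 11634 bases apart, and the transcripts share no stretch of read length with each other. They followed different courses. Birc3 (cIAP2) rose at 6 h and returned. Its libraries stood at 10.4, 10.0 and 11.9 CPM in WT DMSO, 21.1, 19.9 and 20.03 CPM at 6 h and 11.8, 12.1 and 12.9 CPM at 24 h. In Nrf1-KO cells they stood at 9.98, 11.0 and 9.72 CPM in DMSO, 21.4, 22.8 and 24.1 CPM at 6 h and 12.6, 11.5 and 10.2 CPM at 24 h. The libraries at 6 h were apart from all others, and those at 24 h overlapped with DMSO. The log2 change at 6 h was 0.92 in WT (SE 0.082, adjusted p = 1.39e-11) and 1.15 in Nrf1-KO (SE 0.082, adjusted p = 9.34e-14), with an interaction of 0.23 (SE 0.117, adjusted p = 0.122). At 24 h it was 0.20 in WT (SE 0.090, adjusted p = 0.0418), and this call was lost in 9 of 13 alternatives, among them DESeq2 (adjusted p = 0.165) and the fits without WT DMSO replicate 1 or replicate 2 or without WT CFZ 24 h replicate 2 or replicate 3. In Nrf1-KO cells at 24 h it was 0.17 (SE 0.089, adjusted p = 0.0808). It was called without Nrf1-KO DMSO replicate 2 and without Nrf1-KO CFZ 24 h replicate 3.

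Birc2 (cIAP1) was not called in either direction at 6 h and was lower at 24 h. Its libraries stood at 21.0, 19.3 and 19.6 CPM in WT DMSO, 22.7, 22.1 and 16.2 CPM at 6 h and 11.7, 10.4 and 9.85 CPM at 24 h. In Nrf1-KO cells they stood at 16.2, 14.5 and 17.5 CPM in DMSO, 16.2, 17.1 and 15.6 CPM at 6 h and 11.6, 9.32 and 11.0 CPM at 24 h. Of the 3 WT libraries at 6 h, replicate 3 stood apart at the low value. The log2 change at 24 h was -0.93 in WT (SE 0.104, adjusted p = 1.08e-09) and -0.62 in Nrf1-KO (SE 0.103, adjusted p = 2.01e-06). At 6 h it was 0.03 (SE 0.091, adjusted p = 0.808) and 0.01 (SE 0.101, adjusted p = 0.909). The interaction at 24 h was 0.31 (SE 0.149, adjusted p = 0.0742), and it passed the threshold with upper-quartile scaling, without the expression filter, in a model of the compared groups only, and without Nrf1-KO DMSO replicate 3 or Nrf1-KO CFZ 24 h replicate 2. In DMSO Birc2 was lower in Nrf1-KO cells, at a log2 difference of -0.30 (SE 0.089, adjusted p = 0.00488), a call that was lost without WT DMSO replicate 1 (adjusted p = 0.0507).

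The reads of Birc3 relative to those of Birc2 rose after CFZ through both courses. The ratio was 0.542 ± 0.0591 in WT DMSO (SD, n = 3) and became 1.02 ± 0.188 at 6 h and 1.16 ± 0.150 at 24 h. In Nrf1-KO cells it was 0.644 ± 0.104, 1.40 ± 0.129 and 1.08 ± 0.154 in the same order. All 12 treated libraries were above all 6 DMSO libraries. At 6 h the rise came with a higher level of Birc3, and at 24 h with a lower level of Birc2.

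**Figure D3:**
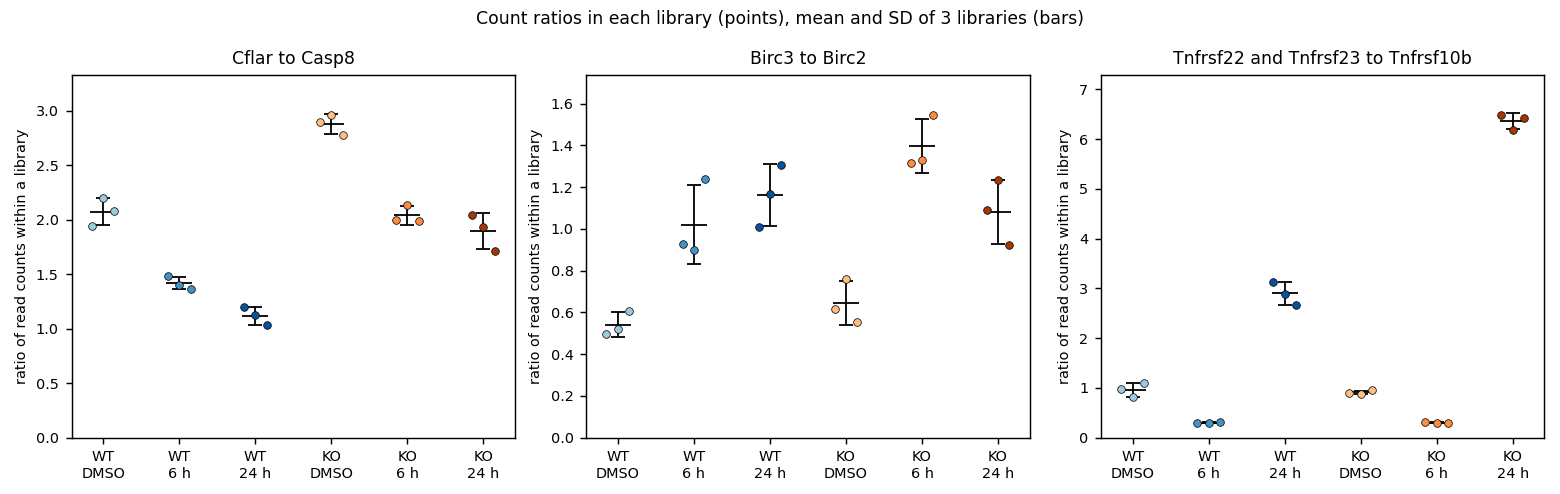
Ratios of read counts within each library, with points for libraries, bars for the mean and SD of 3 libraries, and linear axes that start at 0. The panels show Cflar to Casp8 (2.08 falling to 1.12 in WT, 2.88 falling to 1.90 in Nrf1-KO), Birc3 to Birc2, and the decoy receptors Tnfrsf22 and Tnfrsf23 together to Tnfrsf10b (0.302 at 6 h in both lines, 2.90 and 6.36 at 24 h).

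Before treatment the lines differed in 4 of the 8 genes. In Nrf1-KO DMSO, Tnfrsf12a and Cflar (2 members) were higher and Fas and Birc2 (2 members) were lower than in WT DMSO, where 25.7% of all genes were higher and 29.1% lower. None reached 2-fold, against 3.20% and 1.77% of all genes. With library size alone, 57.7% of all genes called in this comparison were higher, in place of 46.9%. The response to CFZ differed between the lines for Tnfrsf1a alone at 6 h, which makes 0 members with a higher interaction and 1 with a lower, beside 19.8% and 18.4% of all genes. No member was past 2-fold there, beside 1.21% and 1.57%. At 24 h 1 member (Cflar) had a higher interaction and 3 (Tnfrsf10b, Fas and Tnfrsf1a) a lower, beside 29.7% and 30.0%, and none was past 2-fold, beside 4.07% and 4.53%. The median size of the interaction, regardless of sign, was 0.12 over the members at 6 h and 0.25 at 24 h, against 0.20 and 0.32 over all genes tested.

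Per kilobase of exon, Tnfrsf1a was the highest of the 8 in WT DMSO, at 49.6 ± 0.633 CPM per kb (SD, n = 3), followed by Tnfrsf12a (31.6 ± 3.72), Casp8 (14.5 ± 0.893), Cflar (6.85 ± 0.108), Tnfrsf10b (6.49 ± 0.464), Birc2 (4.36 ± 0.201), Fas (4.35 ± 0.176) and Birc3 (2.15 ± 0.201). Cflar and Tnfrsf10b, and Birc2 and Fas, lay within their spread of each other. At 6 h in WT cells Fas reached 34.9 ± 3.13 CPM per kb and Tnfrsf10b 27.4 ± 0.449, both above Casp8 at 18.2 ± 0.758. At 24 h in Nrf1-KO cells Tnfrsf12a was the highest, at 108 ± 6.45 CPM per kb. These levels use the union of annotated exons as length, which need not be the transcripts made in these cells.

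The other genes of the pathway were taken from a list of 38, of which 32 passed the expression filter. The ligands Tnfsf10, Fasl, Tnf and Lta, the receptor Ngfr and the adaptor Traf1 did not, with at most 12 reads in any library. At 6 h 15 of the 32 were higher and 14 lower in WT cells, beside 35.6% and 36.2% of all genes tested, and 15 higher and 12 lower in Nrf1-KO cells, beside 34.5% and 35.0%. At 24 h the counts were 16 higher and 12 lower in WT cells, beside 43.2% and 40.5%, and 18 higher and 11 lower in Nrf1-KO cells, beside 44.4% and 41.1%. The median log2 change lay between 0.06 and 0.25 in these 4 comparisons, against -0.02 to 0.03 over all genes tested.

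Among the receptors, Tnfrsf22 and Tnfrsf23 (neighbouring genes on chromosome 7, which encode decoy receptors of TRAIL without a death domain) rose mostly between 6 h and 24 h, later than Tnfrsf10b. Tnfrsf22 stood at 13.5 ± 0.407 CPM in WT DMSO (SD, n = 3) and became 11.3 ± 0.607 at 6 h and 83.7 ± 6.71 at 24 h, and in Nrf1-KO cells at 12.2 ± 0.284, 15.4 ± 1.29 and 222 ± 10.2 CPM. Tnfrsf23 stood at 20.3 ± 2.31, 33.8 ± 0.454 and 258 ± 7.93 CPM in WT and at 18.4 ± 0.419, 29.7 ± 1.30 and 400 ± 16.6 CPM in Nrf1-KO cells. At 24 h no library of one line overlapped with the other for either gene. The interaction at 24 h was 1.56 for Tnfrsf22 (SE 0.095, adjusted p = 4.30e-15) and 0.77 for Tnfrsf23 (SE 0.079, adjusted p = 7.56e-10). Of the read-length stretches of Tnfrsf23, 6.72% are shared with Tnfrsf22, and the antisense locus E230032D23Rik covers 4.14% of its exons. Of those of Tnfrsf22, 12.6% are shared with Tnfrsf23 and other loci, so that both levels are uncertain to the extent of such reads. If reads shared by the pair were counted to either gene, a sum over the pair does not depend on which. Whether such reads were counted is not known, and the sharing with other loci remains. Their summed reads relative to those of Tnfrsf10b were 0.962 ± 0.143 in WT DMSO, 0.302 ± 0.00766 at 6 h and 2.90 ± 0.231 at 24 h. In Nrf1-KO cells they were 0.911 ± 0.0340, 0.302 ± 0.0107 and 6.36 ± 0.160. The 3 time groups did not overlap in either line. Tnfrsf21 (DR6, a death-domain receptor) rose at both times, by 1.34 in WT and 1.21 in Nrf1-KO cells at 6 h and by 2.83 and 3.48 at 24 h on the log2 scale, from 2.80 and 3.31 CPM in DMSO. Tnfrsf25 (DR3) was lower at 24 h, at -2.09 and -1.60, values that rest on few reads. Its libraries at 24 h held 4 to 11 reads in WT and 14 to 20 reads in Nrf1-KO cells. Tnfrsf11b (osteoprotegerin, a secreted decoy receptor) was the 1 listed gene at least 2-fold apart between the lines in DMSO, higher in Nrf1-KO cells by 1.62. It stood at 6.60, 10.0 and 7.41 CPM in WT and at 20.1, 43.9 and 18.3 CPM in Nrf1-KO cells, in the order DMSO, 6 h and 24 h, and its log2 change at 6 h was 0.62 in WT and 1.12 in Nrf1-KO cells.

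**Figure D4:**
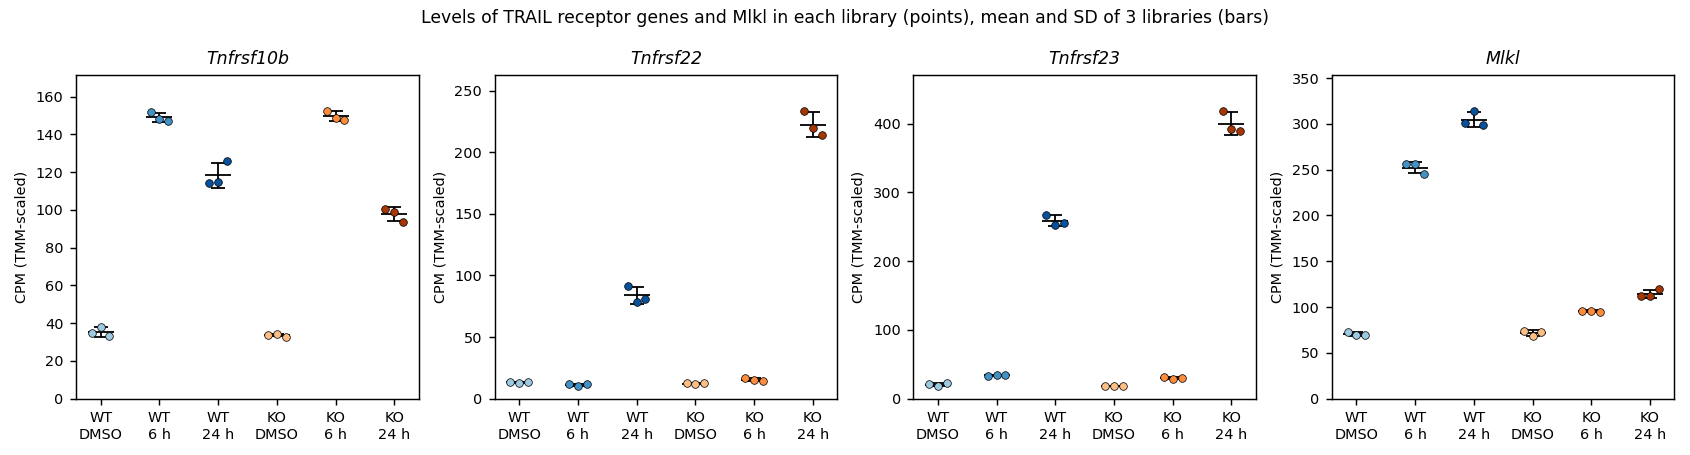
Levels of Tnfrsf10b, the decoy TRAIL receptors Tnfrsf22 and Tnfrsf23, and Mlkl in every library, in TMM-scaled CPM on linear axes that start at 0, with points for libraries and bars for the mean and SD of 3 libraries. The decoy receptors are highest at 24 h in Nrf1-KO cells (222 and 400 CPM), and Mlkl rises to 252 and 305 CPM in WT and to 95.4 and 114 CPM in Nrf1-KO cells.

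Mlkl and Traf3 were the listed genes with an interaction past 2-fold at 6 h. Mlkl, the pore-forming effector of necroptosis, stood at 70.7 ± 1.84 CPM in WT DMSO (SD, n = 3) and reached 252 ± 6.33 at 6 h and 305 ± 8.65 at 24 h. In Nrf1-KO cells it stood at 71.7 ± 2.85, 95.4 ± 0.922 and 114 ± 4.43 CPM. The interaction for Mlkl was -1.42 at 6 h (SE 0.056, adjusted p = 3.34e-19) and -1.43 at 24 h (SE 0.055, adjusted p = 3.99e-20). Traf3, an adaptor that works with the cIAPs in non-canonical NF-kB signalling, rose by 1.89 and 1.83 in WT and by 0.79 and 0.46 in Nrf1-KO cells on the log2 scale, at 6 h and 24 h. Its interaction was -1.10 (SE 0.067, adjusted p = 1.20e-14) and -1.37 (SE 0.066, adjusted p = 1.48e-17). Ripk3, the kinase that activates MLKL, rose by 1.13 in WT and 0.56 in Nrf1-KO cells at 24 h. Ripk1 and Rnf31 (HOIP, a linear ubiquitin ligase) passed 2-fold in Nrf1-KO cells at 24 h, at 1.12 and 1.09. Both were also higher in WT cells at 24 h. There the mean of Ripk1 went from 63.9 to 117 CPM and that of Rnf31 from 20.9 to 31.8 CPM.

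Tnfaip3, which encodes the NF-kB-induced deubiquitinase A20, was highest at 6 h. It rose by 2.74 in WT and 2.54 in Nrf1-KO cells at 6 h on the log2 scale and was below DMSO at 24 h, at -0.71 and -0.48. Its levels were low, with means of 2.54, 17.2 and 1.55 CPM in WT and 4.43, 26.5 and 3.26 CPM in Nrf1-KO cells, in the order DMSO, 6 h and 24 h. Of the NF-kB subunits, Rela and Nfkb1 were followed here, and their transcripts moved less at 6 h. Rela rose by 0.68 in WT and 0.89 in Nrf1-KO cells at 6 h, and Nfkb1 stood at 0.11 and 0.09, of which the WT value was called. At 24 h the mean of Nfkb1 was 65.5 CPM in WT and 73.2 CPM in Nrf1-KO cells, below 96.9 and 92.0 CPM in DMSO. That of Rela was 116 and 114 CPM, above 78.6 and 62.7 CPM in DMSO.

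Of the other 3 IAP genes tested, Xiap (an inhibitor of caspases) and Birc5 (survivin, which also works in mitosis) were lower in all 4 comparisons with DMSO, and Birc6 (a large ubiquitin-conjugating IAP) was higher in 3 and lower in 1. The log2 change of Birc6 was 0.51 and 0.45 in WT cells at 6 h and 24 h, and 0.16 and -0.25 in Nrf1-KO cells. The log2 change of Xiap was -0.68 in WT and -0.35 in Nrf1-KO cells at 6 h, and -1.47 and -1.41 at 24 h. That of Birc5 was -2.00 in WT and -3.68 in Nrf1-KO cells at 24 h, with an interaction of -1.68 (SE 0.091, adjusted p = 2.25e-16). Birc5 is periodic in the cell cycle, and the share of dividing cells was not measured here. Htra2, a mitochondrial protease that binds IAPs, was lower at 24 h, at -1.49 in Nrf1-KO and -0.27 in WT cells, with an interaction of -1.22 (SE 0.067, adjusted p = 3.75e-16). Fadd, the adaptor that recruits caspase-8, was lower at 24 h, at -1.23 in WT and -1.34 in Nrf1-KO cells. Cyld, a deubiquitinase of RIPK1, was lower at 24 h, at -1.10 in Nrf1-KO and -0.23 in WT cells. Casp6, an effector caspase, was lower at 6 h, at -1.20 in WT and -0.88 in Nrf1-KO cells, and higher at 24 h, at 0.45 and 0.96.

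The genes most like each member over the 18 libraries were found by Pearson's r of log2(CPM + 0.5), among genes whose mean count was 50 or more. These libraries fall into 6 groups, so that r mostly describes the group means, and no test is attached. Among those of Tnfrsf10b were Dnajb2 (r = 0.990) and Stip1 (r = 0.990), the genes of an HSP40 co-chaperone and an HSP70-HSP90 organising protein. Fas was nearest to Relb (0.988), Aebp2 (0.983) and Dstn (0.981), and Birc3 to Slc35e1 (0.978), Relb (0.964) and Irf1 (0.961). Relb, a subunit of NF-kB, was thus among the nearest 3 genes of both. Between members, r was 0.940 for Fas and Birc3, 0.898 for Tnfrsf10b and Casp8 and -0.877 for Tnfrsf12a and Birc2. Tnfrsf1a was nearest to Prpf19 (0.972), Tnfrsf12a to Sgsm3 (0.987), Casp8 to Cct6a (0.949), a chaperonin subunit, and Cflar to Spp1 (0.983).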

How the data were processed

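RNA-seq of 18 NIH-3T3 libraries was analysed. The authors made stranded mRNA libraries, sequenced paired reads and used RNA Express, which runs STAR and DESeq2, and they deposited raw read counts for 23420 gene symbols without normalization. Their genome build, annotation and use of strand in counting are not given in the sources used here. Groups came from the sample labels, and every column was matched to a sample by its label. Library totals ran from 8333148 to 23917081 counts, and each member's lowest count (75 reads or more) limits its precision.

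The counts were analysed in R 4.3.3 with edgeR 4.0.16. Low genes were filtered by edgeR's filterByExpr (minimum count 10, minimum total 15), libraries were TMM-scaled, and the 18 libraries were fitted as 6 groups with the quasi-likelihood method. There were 9 comparisons, each with Benjamini-Hochberg adjustment over 11762 genes and a threshold of 0.05. The standard error is the log2 fold change divided by the square root of F. With a common biological coefficient of variation of 3.13%, small changes pass the threshold. The members and the pathway, marker and motif lists were chosen with earlier results of these data known. Listed pathway genes were counted by direction, with values for those past 2-fold against DMSO, between the lines in DMSO or in the interaction. The 3 genes most like each member were taken by Pearson's r, and some of them are not reported here. Gene positions and shared stretches of read length came from GENCODE M21 on GRCm38, and start regions from RefSeq on GRCm38.p6, which need not be the authors' annotation. Scripts were tested on simulated data.

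Alternatives were DESeq2 1.42.0, upper-quartile scaling, library size alone, no expression filter, a mean count of at least 10, the compared groups only, a replicate block, at least 2-fold, and each library left out in turn. The read ratios, with each library left out, were added after seeing the data. No pair of replicates differed by less than the sampling noise (chi-square per degree of freedom 1.438 to 8.469 over 18 pairs).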

Additional observations from a re-analysis of the deposited data

Results flagged for a closer look

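The values in this paragraph are the tests of whether the response to CFZ differed between the lines (edgeR's interaction term, on the log2 scale, positive where the Nrf1-KO response was higher). Tnfrsf1a differed at 6 h by -0.634 (adjusted p = 1.72e-11), because it rose in WT and was slightly lower in Nrf1-KO cells. At 24 h Tnfrsf1a differed by -0.447 (adjusted p = 1.07e-08). Fas differed at 24 h by -0.919 (adjusted p = 3.65e-05), with a rise still called in WT cells and none called in Nrf1-KO cells. Cflar differed at 24 h by 0.336 (adjusted p = 2.90e-05), with the larger fall in WT cells. Tnfrsf10b differed at 24 h by -0.200 (adjusted p = 0.0133), with a rise that was called in both lines and smaller in Nrf1-KO cells.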

How the results depend on the processing

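Over all members, comparisons and alternatives, 964 values kept their direction and side of the threshold, 18 lost their call, 16 gained one and 34 changed sign. No value that had been called changed sign. The cause of these changes was not tested, except that a scaling moves all genes alike. Relative to TMM, library size alone moved the median of all genes by -0.132 (6 h) and -0.105 (24 h) in WT cells and by -0.113 (6 h) and -0.183 (24 h) in Nrf1-KO cells. Upper-quartile scaling moved it by -0.109 (6 h) and -0.137 (24 h) in WT cells and by -0.109 (24 h) in Nrf1-KO cells. The sign changes were near 0. Birc2 at 6 h was -0.0829 with upper-quartile scaling, -0.106 with library size alone and -0.0018 without the filter in WT cells, and -0.0595, -0.0985 and -0.0348 in Nrf1-KO cells. With 1 library left out it ran from -0.0493 to 0.174 in WT and from -0.0475 to 0.0959 in Nrf1-KO cells. Its interaction at 6 h was 0.0235 and 0.0074 under the same scalings and -0.179 to 0.0719 with 1 library left out. Tnfrsf1a at 24 h in WT cells was -0.066 and -0.0342 under these scalings, and between the lines in DMSO 0.0274 with library size alone and -0.0455 to 0.00503 with 1 library left out. With library size alone Tnfrsf12a in Nrf1-KO cells at 6 h was -0.00101, Birc3 in these cells at 24 h -0.0173 and the Casp8 interaction at 24 h -0.0457. With 1 library left out, Casp8 ran from -0.00972 to 0.118 between the lines in DMSO, from -0.0415 to 0.0959 in the interaction at 6 h and from -0.0257 to 0.0859 at 24 h, and the Birc3 interaction at 24 h from -0.102 to 0.0377.

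With a minimum of 2-fold, the members called numbered 2 at each time in WT cells, 3 (6 h) and 2 (24 h) in Nrf1-KO cells, 1 in either line between the times, 0 between the lines in DMSO and 0 in both interactions. Of the 32 pathway genes tested, 5, 10, 3 and 11 were called in the first 4 comparisons, where all genes gave, higher and lower, 3.98% and 5.65%, 10.5% and 14.5%, 3.30% and 4.26%, and 11.5% and 15.2%. Between the times 8 (WT) and 11 (Nrf1-KO) were called, beside 5.16% and 6.92% and 6.56% and 9.22%. In DMSO it was 1, beside 3.20% and 1.77%, and in the interactions 2 (6 h) and 5 (24 h), beside 1.21% and 1.57% and 4.07% and 4.53%. For the interaction at 6 h, 2 members were called without the filter and 1 to 2 with 1 library left out; the added gene was Tnfrsf12a, without WT DMSO replicate 2 or WT CFZ 6 h replicate 2. The deviations of libraries with the same number were nearly uncorrelated (mean r 0.0195 over 45 same-numbered pairs). With the replicate number as a replicate block, the members called were 7, 7, 6, 6, 7, 7, 4, 1 and 4 over the 9 comparisons, as without it. The lowest member counts were those of Fas in Nrf1-KO cells at 24 h, at 75 to 92 reads.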
